A study of Mus musculus with 12 samples.

Results

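The Sonic hedgehog pathway was followed here through 10 genes: the ligand Shh, the co-receptors Boc, Cdon and Gas1, the receptor Ptch1, the ligand-binding inhibitor Hhip, the signal transducer Smo and the transcription factors Gli1, Gli2 and Gli3. All probes of these genes on a mouse Agilent array were taken, which gave 15 probes and 24 spots per array, for 10 of the 19751 genes that could be named. Of the 10 genes, 8 were among the 15368 genes tested. Shh and Hhip were not, because none of their probes cleared the background limit on 3 or more of the 12 arrays.

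The study asked how transcripts in the dorsomedial telencephalon differ when the transcription factors Dmrt3 and Dmrta2 are lost or Dmrta2 is gained. Electroporation was done in CD-1 mouse embryos of stage E11.5, and cells with GFP fluorescence were collected by sorting after 24 hours, at E12.5. Each of the 4 groups had 3 independent replicates with 1 one-colour array each. The first group received an expression plasmid for Dmrta2 (Dmrta2 overexpression). Another 2 groups received siRNA set 2 and siRNA set 1, both directed against Dmrt3 together with Dmrta2. The last group received control siRNAs and served as the only control, also for the plasmid. Embryos were CD-1 in every group, and the labels give all groups the same protocol, in which an EGFPNLS vector marked the cells to be sorted. The promoter of the plasmid, any siRNA given with it and the number of embryos per sample are not given in the sources used here. Replicates 1, 2 and 3 lay on 3 slides, each with 1 array of every group at the same position, so group and position cannot be told apart. The samples are pools of sorted cells, so fewer cells of a type and less RNA per cell cannot be told apart.

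Hedgehog ligand binds Ptch1 at the cell surface, and binding relieves the block that Ptch1 places on Smo. Active Smo shifts the Gli factors, at the primary cilium, from repressor to activator forms. In the embryonic telencephalon the ligand is known from ventral sources and promotes ventral identity, while the repressor form of Gli3 is needed for dorsal structures such as the cortical hem and hippocampus. Ptch1, Hhip and Gli1 are themselves classic transcriptional targets of the pathway.

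None of the 8 measured genes passed the test in any of the 6 comparisons made. Shh was not well above background on any array, while the receptor, the transducer, all 3 co-receptors and all 3 Gli factors were well above background on all 12. Levels below are log2 processed signal minus the 75th percentile of the same array, here called the relative level, so that 0 is the 75th percentile and differences are log2 differences. A probe's relative level is compared between groups and never with that of another probe. Differences were tested with limma over all 15368 genes, with Benjamini-Hochberg adjustment and an adjusted p of 0.05 as the threshold, and each ± on a difference is limma's standard error. The p-values measure the spread between these samples, and their precision is limited by the small number of arrays.

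The arrays had raw signals whose 75th percentile was 572 at the lowest and 1142 at the highest, with 67.1% to 72.2% of spots detected. Replicates of a group had a Pearson r of 0.979 to 0.994 over genes. All 9 telencephalic progenitor markers, Emx1 among them, were well above background on all 12 arrays, whereas Nkx2-1, the defining marker of the most ventral telencephalon, was on none. Other ventral telencephalic markers were detected, with Dlx2, Dlx5, Gsx2, Lhx6 and Ebf1 well above background on all 12 arrays. Dlx1, Gad1, Gad2 and Isl1 were so on 3 to 5 arrays. The targeted gene Dmrt3 differed from control by -0.80 ± 0.30 in set 2 and by -1.02 ± 0.30 in set 1 (limma adjusted p 0.279 and 0.235). Dmrta2 differed by -0.31 ± 0.16 in set 2 and by -0.61 ± 0.16 in set 1 (limma adjusted p 0.490 and 0.186). None of these passed the threshold. Every set 1 and set 2 array lay below every control array for Dmrt3, as did every set 1 array for Dmrta2. Groups lie apart for 18% of all genes in set 2 minus control and 14.7% in set 1 minus control. With the slide as a block in the limma fit, the adjusted p for Dmrt3 was 0.0414 in set 1, while set 2 did not pass the threshold. For the average of both sets it was 0.0284 in that fit. On the overexpression arrays the Dmrta2 probe stood at -0.50 ± 0.16 against control siRNAs (limma adjusted p 0.574). All overexpression arrays lay below all control arrays for this probe, and groups lie apart for 7.55% of all genes in that comparison. Whether that probe lies within the sequence carried by the plasmid is not given in the sources used here, so it does not check the label.

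The 250 bases before the start of each gene were read from RefSeq's promoter table of build GRCm38.p6, which matched 7 of the 10 genes. Of these, 3 are shown because they bear on the pathway's own targets and on its binding motif: Ptch1 and Hhip, which are both known targets, of which 1 was measured and 1 was not, and Gli2, which holds the only match to the core motif. Capitals mark GGGCGG or its complement CCGCCC in Ptch1 and Hhip, and GGGTGGT, the complement of the Gli core ACCACCC, in Gli2. All run 5′ to 3′ on the minus strand, where each of the 3 genes lies.
Ptch1, chr13:63565736-63565985: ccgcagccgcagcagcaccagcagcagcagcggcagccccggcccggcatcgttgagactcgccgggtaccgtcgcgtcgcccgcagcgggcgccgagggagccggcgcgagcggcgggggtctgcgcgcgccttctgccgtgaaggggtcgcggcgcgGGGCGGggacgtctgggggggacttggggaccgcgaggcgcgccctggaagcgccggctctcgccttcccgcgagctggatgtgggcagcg
Hhip, chr8:80058009-80058258: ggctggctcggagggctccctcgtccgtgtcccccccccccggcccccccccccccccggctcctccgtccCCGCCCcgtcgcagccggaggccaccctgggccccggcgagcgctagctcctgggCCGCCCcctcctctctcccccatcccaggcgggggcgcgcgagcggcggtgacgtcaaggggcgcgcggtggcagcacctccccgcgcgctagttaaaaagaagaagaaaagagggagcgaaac
Gli2, chr1:119053620-119053869: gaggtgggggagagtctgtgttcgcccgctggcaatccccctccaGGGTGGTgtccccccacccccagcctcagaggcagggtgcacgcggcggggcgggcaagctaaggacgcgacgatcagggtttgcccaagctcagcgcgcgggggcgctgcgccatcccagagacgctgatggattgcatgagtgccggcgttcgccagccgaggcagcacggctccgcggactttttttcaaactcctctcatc

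Both strands of each promoter were searched. The full Gli consensus GACCACCCA was in 0 of the 7 promoters, against 0.225% of all 32851 promoters of the same length. The core ACCACCC was in 1 of 7, that of Gli2, against 3.92% of all. The GC box GGGCGG, the letters bound by Sp1, was in 5 of 7, against 32.7% of all. These are matches of letters in a short window, and no match says nothing about binding elsewhere. The Ptch1 stretch held 41 CpG dinucleotides, that of Hhip 28 and that of Gli2 22, whereas the Cdon stretch held 1. The median of all promoters was 6. In the same order, these counts were above those of 98.9%, 92.4%, 85.2% and 7.87% of all promoters.

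Shh, the secreted ligand, was represented by 1 probe with 10 spots on each array, and 0 of its 120 spots over the 12 arrays were well above background. Its relative level was -8.69, -8.80 and -8.55 on the overexpression arrays, -8.70, -8.82 and -8.81 on the set 2 arrays, -8.56, -9.11 and -8.42 on the set 1 arrays, and -8.19, -8.66 and -8.50 on the control arrays. These values lie below what the array could measure and have no order. Nothing can therefore be said of a change in Shh, and its absence from these cells is not shown.

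Hhip encodes a membrane protein that binds hedgehog ligands and limits their range. It had 2 probes, and 1 of their 24 spots was well above background, on the array of set 2 replicate 2. The brighter probe read -7.75, -6.75 and -7.00 on the overexpression arrays, -6.91, -6.20 and -6.53 on set 2, -6.29, -6.93 and -6.40 on set 1, and -7.35, -6.80 and -6.19 on control arrays. Hhip was thus not well above background in any group as a whole, and no fold is given.

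Ptch1 encodes the receptor, and its level is widely read as a measure of pathway activity. Its single probe was well above background on all 12 arrays. The relative level of Ptch1 was -4.03, -4.16 and -3.81 in overexpression, -4.50, -4.36 and -4.57 in set 2, -3.65, -4.12 and -4.37 in set 1, and -4.39, -4.05 and -4.57 in control samples. The highest array was set 1 replicate 1, and the groups overlapped in all 6 comparisons. The overexpression arrays lay above all set 2 arrays, but that pair was not tested. The share of all genes whose arrays lie apart in it was not computed.

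For Ptch1 the difference from control siRNAs was 0.33 ± 0.20 in overexpression (95% interval -0.10 to 0.77), or 1.26-fold with an interval of 0.93 to 1.71. It was -0.14 ± 0.20 in set 2 and 0.29 ± 0.20 in set 1. Set 2 minus set 1 gave -0.43 ± 0.20 (95% interval -0.86 to 0.01), with a limma p of 0.0532 before and 0.518 after adjustment, the smallest unadjusted p of any measured pathway gene. Without set 1 replicate 1 this difference was -0.23. Within the 3 slides the overexpression difference was 0.36, -0.11 and 0.75, so it was above 0 on 2 slides and below 0 on 1.

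On the array of set 1 replicate 1, markers of mesenchyme were also high. The summed relative signal of the 10 mesenchyme genes was 1.53 to 2.03 in overexpression, 1.61 to 1.94 in set 2, 2.07 to 8.17 in set 1 and 1.34 to 1.68 in control samples, with the value of 8.17 on set 1 replicate 1. All 10 genes were well above background on that array, and 4 to 7 were on each of the other 11. Lum and Postn were well above background on that array alone. Genes with the pattern most like that of Ptch1 were sought among 13755 genes, leaving out those named by clone or locus number. They were Creb3l2, Col1a1 and Mtmr9, with Pearson r of 0.93, 0.93 and 0.92 over the 12 arrays after centring each slide. Col1a1, a fibrillar collagen, stood at -2.05, -3.41 and -1.87 in overexpression, -4.89, -5.13 and -4.53 in set 2, 0.39, -4.16 and -3.78 in set 1 and -5.55, -4.06 and -4.72 in control samples. The part of such cells in the Ptch1 values was not tested.

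Boc, Cdon and Gas1 encode cell-surface co-receptors that help present ligand to Ptch1. The relative level of Boc was 0.54, 0.52 and 0.99 in overexpression, 0.51, 0.57 and 1.04 in set 2, 0.21, 0.64 and 0.26 in set 1, and 0.59, 0.25 and 1.11 in control samples. Boc was thus low on set 1 replicates 1 and 3 and on control replicate 2. Its difference from control was 0.04 ± 0.24 in overexpression, 0.06 ± 0.24 in set 2 and -0.28 ± 0.24 in set 1 (95% interval -0.81 to 0.26).

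Cdon had the smallest residual SD of the measured pathway genes, 0.14, although with a slide block it was 0.16 and that of Smo was 0.14. Its brighter probe read 4.28, 4.57 and 4.43 in overexpression, 4.29, 4.47 and 4.59 in set 2, 4.45, 4.39 and 4.36 in set 1, and 4.66, 4.29 and 4.60 in control samples. All 12 arrays lay between 4.28 and 4.66. The differences from control were -0.09, -0.07 and -0.12 in overexpression, set 2 and set 1, each ± 0.13. The 95% intervals of all 3 lay between -0.41 and 0.22. A second, dimmer Cdon probe gave -0.03, -0.27 and -0.05, each ± 0.16.

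Gas1, whose protein is anchored in the membrane, had 3 probes. The brightest read 1.25, 1.59 and 1.01 in overexpression, 0.59, 1.28 and 0.59 in set 2, 1.51, 0.79 and 1.00 in set 1, and 1.43, 0.92 and 1.32 in control samples. Set 2 replicates 1 and 3 held the lowest values. The difference of set 2 from control was -0.40 ± 0.25 (95% interval -0.97 to 0.16, limma adjusted p 0.581) on this probe. In a separate limma fit over all probes it was -0.06 ± 0.20 and -0.06 ± 0.25 on the other Gas1 probes. Within slides it was -0.83, 0.36 and -0.73. In overexpression the brightest probe differed from control by 0.06 ± 0.25, and in set 1 by -0.12 ± 0.25.

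Smo encodes the membrane protein that carries the signal into the cell. Its brighter probe read 3.86, 4.15 and 3.89 in overexpression, 3.61, 3.91 and 3.59 in set 2, 3.95, 4.09 and 3.67 in set 1, and 3.90, 3.80 and 3.95 in control samples. The differences from control were 0.08, -0.18 and 0.02 in overexpression, set 2 and set 1, each ± 0.14. Set 2 was thus the lowest group mean for Smo, with a 95% interval against control of -0.50 to 0.14. The dimmer Smo probe gave -0.20, -0.15 and 0.03, each ± 0.36, and was lowest on the replicate 2 array in every group.

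**Figure D1:**
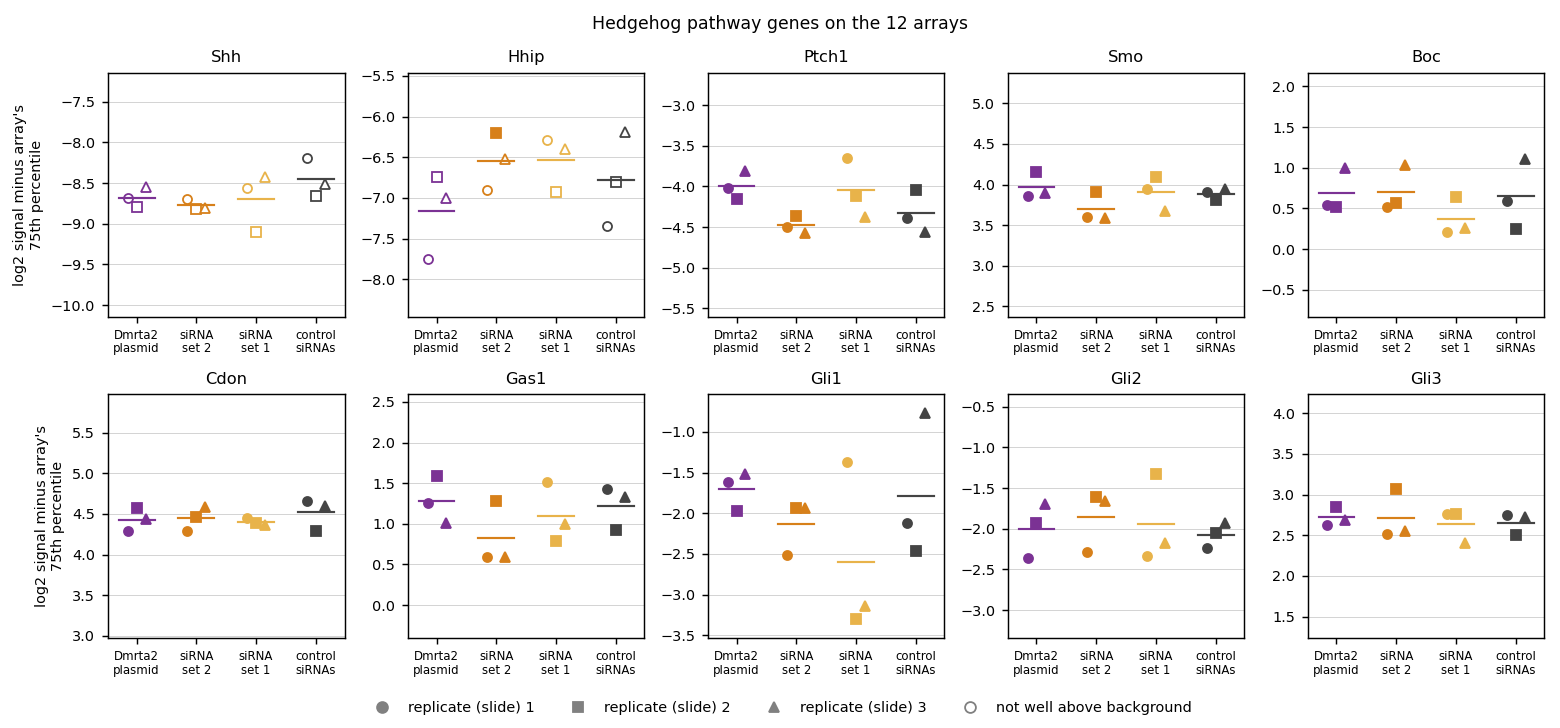
Relative level (log2 processed signal minus the 75th percentile of the array) of the 10 hedgehog pathway genes on each of the 12 arrays, 1 panel per gene, with circles, squares and triangles for replicates 1, 2 and 3, a line for the group mean, and hollow marks where the probe was not well above background. The marks are hollow on all 12 arrays for Shh, and for the 8 measured genes each treated group overlaps the control group.

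Gli1 encodes an activator that is itself induced by the pathway. Its relative level was -1.61, -1.97 and -1.52 in overexpression, -2.51, -1.94 and -1.94 in set 2, -1.37, -3.30 and -3.14 in set 1, and -2.12, -2.47 and -0.77 in control samples. Control replicate 3 was the highest of the 12 arrays, set 1 replicates 2 and 3 were the lowest, and set 1 replicate 1 lay above the overexpression arrays. The Gli1 difference from control was 0.09 ± 0.53 in overexpression, -0.34 ± 0.53 in set 2 and -0.81 ± 0.53 in set 1. For the average of both siRNA sets it was -0.58 ± 0.46, or 0.67-fold with a 95% interval of 0.33 to 1.35 (limma adjusted p 0.708).

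These Gli1 values rested on a few arrays. Within slides 1, 2 and 3 the siRNA average minus control was 0.18, -0.15 and -1.77. Without control replicate 3 the difference of the siRNA average was -0.07 and that of set 1 was -0.31. It was -0.92 for the siRNA average without control replicate 2, and -1.43 for set 1 without set 1 replicate 1. None of these passed the threshold. The residual SD of Gli1 was 0.73, larger than that of 95.1% of all genes and of 96.8% of the 500 genes nearest to it in level. The median residual SD of all genes was 0.24.

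Gli2, which acts mainly as an activator of targets when ligand is present, read -2.36, -1.93 and -1.69 in overexpression, -2.29, -1.61 and -1.66 in set 2, -2.33, -1.33 and -2.17 in set 1, and -2.24, -2.05 and -1.93 in control samples. Replicate 1 was the lowest array of every group. The differences from control were 0.08, 0.22 and 0.13 in overexpression, set 2 and set 1, each ± 0.28, and the residual SD of Gli2 was 0.38 without and 0.26 with a slide block.

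Gli3, the main repressor of the pathway in dorsal forebrain, read 2.63, 2.85 and 2.69 in overexpression, 2.52, 3.07 and 2.56 in set 2, 2.76, 2.76 and 2.40 in set 1, and 2.74, 2.50 and 2.72 in control samples. Set 2 replicate 2 was the highest and set 1 replicate 3 the lowest array. Its differences from control were 0.06, 0.06 and -0.02 in overexpression, set 2 and set 1, each ± 0.17, and their 95% intervals lay between -0.39 and 0.44. The arrays measure transcript, and say nothing of the balance between full-length and repressor forms of the Gli3 protein.

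**Figure D2:**
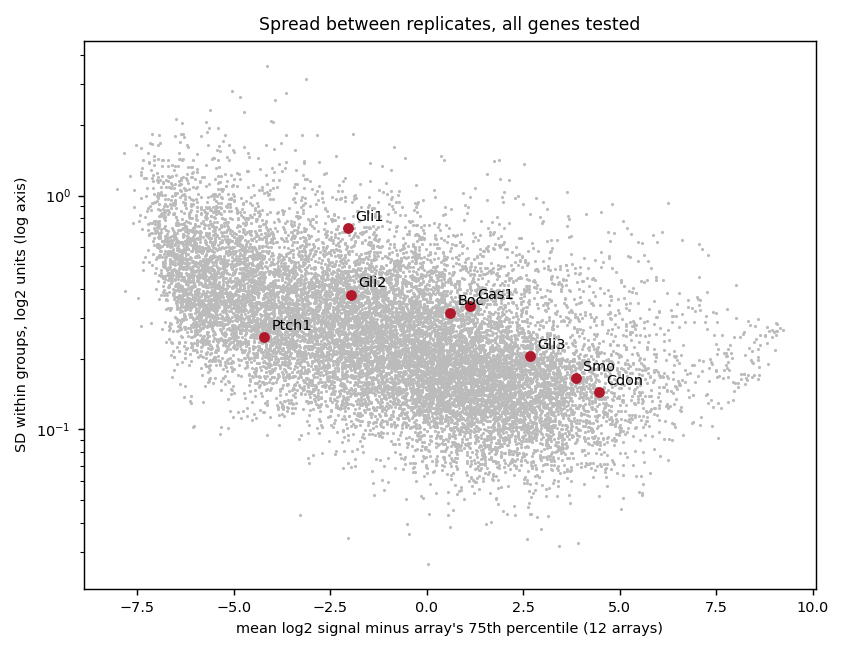
SD within groups (log2 units, log axis) against the mean relative level over 12 arrays, with all 15368 genes tested in grey and the 8 measured hedgehog pathway genes in red. Gli1 stands at 0.73, against 0.14 to 0.38 for the other 7 pathway genes, and the median of all genes was 0.24.

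Counted together, 0 of the 8 measured genes passed limma's threshold in overexpression minus control, against 0.273% of all genes tested. The counts were 0 of 8 in set 2 minus control, against 1.02% of all genes, and 0 of 8 in set 1 minus control, against 0.234%. They were 0 of 8 for the siRNA average minus control, against 0.67%, and 0 of 8 for set 2 minus set 1, against 0.0781%. Overexpression minus the siRNA average also gave 0 of 8, against 2.15%, and this contrast was added after values of these arrays had been seen. With so low a share of all genes passing, a count of 0 in 8 is near the background in every comparison.

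At an unadjusted limma p under 0.05 the count was also 0 of 8 in each of the 6 comparisons, where 4.44% of all genes passed in overexpression, 12.8% in set 2, 10% in set 1, 12.1% in the siRNA average, 9.77% in set 2 minus set 1 and 13.3% in overexpression minus the siRNA average. With the slide, which is the replicate number, as a block the count was again 0 of 8 in each, against 0.332% of all genes in overexpression, 2.38% in set 2, 0.742% in set 1, 1.52% in the siRNA average, 0.215% in set 2 minus set 1 and 3.43% in overexpression minus the siRNA average. The lowest adjusted p among the 8 genes was 1.00 in overexpression, 0.581 in set 2, 0.711 in set 1 and 0.708 in the siRNA average. In no comparison did the arrays of both groups lie fully apart for any of the 8 genes, against 7.55% of all genes in overexpression, 18% in set 2, 14.7% in set 1, 5.32% in the siRNA average, 14% in set 2 minus set 1 and 7.12% in overexpression minus the siRNA average.

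The median log2 difference of the 8 genes was 0.07 in overexpression, -0.11 in set 2, -0.07 in set 1 and -0.09 in the siRNA average, each against control. The corresponding medians of all genes were 0.00, 0.00, -0.01 and -0.01. In overexpression 7 of the 8 differences were above 0 and 1, that of Cdon, was below, while in each siRNA comparison with control 3 were above and 5 below. These comparisons share the control arrays, so their signs are not independent. For overexpression minus the siRNA average, the median was 0.16, with 7 differences above 0 and that of Gli2 below. The largest was that of Gli1, 0.66 ± 0.46 (95% interval -0.35 to 1.68, limma adjusted p 0.610). Within the slides, overexpression minus the siRNA average was above 0 on all 3 for Gli1 (0.33, 0.64 and 1.02), Smo (0.08, 0.15 and 0.26), Ptch1 (0.05, 0.08 and 0.66) and Gas1 (0.20, 0.56 and 0.22). Signs were mixed for Gli2, Gli3, Boc and Cdon. Of the 8 genes, the lowest limma adjusted p in this comparison was 0.440 in the blocked fit. In set 2 minus set 1, Smo and Ptch1 were below 0 on all 3 slides, as was Ptch1 in set 2 minus control. The share of all genes with the same sign on all 3 slides was not computed.

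**Figure D3:**
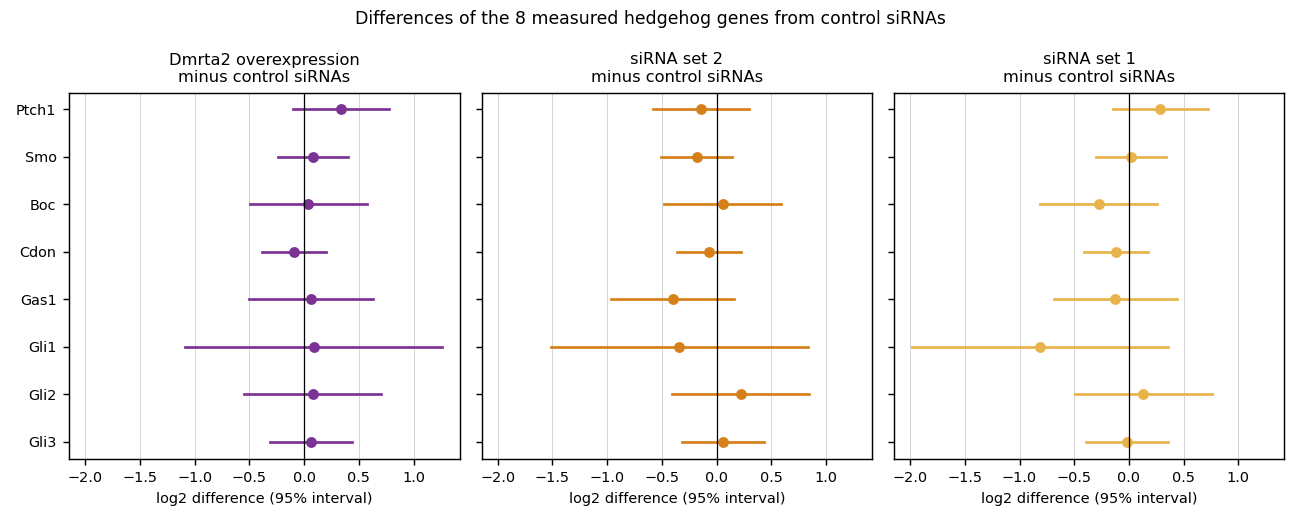
Log2 difference and 95% interval of each of the 8 measured hedgehog pathway genes, in 3 panels for overexpression, set 2 and set 1, each minus control siRNAs, with a line at 0. The interval of every gene includes 0, those of Gli1 are the widest (-1.09 to 1.26 for overexpression minus control) and those of Cdon the narrowest (-0.38 to 0.20).

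Genes with the pattern most like each of the other measured genes were found in the same way as for Ptch1. This used Pearson r over 12 slide-centred arrays among 13755 genes, again without those named by clone or locus number. With so many genes and 12 arrays, high values arise for every gene, and all arrays of a slide share its centring. Smo was closest to Pank1 (r = 0.97), Trmt61a (0.95) and Zdhhc15 (0.95), and Gas1 to Nup43 (0.96), Nup35 (0.96) and Fndc3c1 (0.95). For Gli1 they were Taf5 (0.94), Haus1 (0.92) and Traip (0.91). Gli2 was closest to Becn1 (0.95), Ciz1 (0.95) and Spata13 (0.94), and Gli3 to Pacrgl (0.94), Lsr (0.93) and Dbf4 (0.93). Boc was closest to Tfip11 (0.94), Taf8 (0.93) and Rdh13 (0.91), and Cdon to Brix1 (0.89), Brpf1 (0.89) and Fras1 (0.88). No gene of the pathway appeared among the 3 closest of another.

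Other ligands and release genes were Ihh, Dhh, Hhat, Disp1, Scube1, Scube2 and Scube3, of which 6 were tested and Dhh was on no array well above background. None passed limma's threshold in any of the 6 comparisons. Scube3, which encodes a secreted protein of a family that frees lipid-bearing ligand, had the smallest p, at 0.51 ± 0.18 in overexpression minus control (adjusted p 0.680). All 3 overexpression arrays of Scube3 (-4.00, -3.58 and -3.69) lay above the control arrays (-4.45, -4.17 and -4.18). Groups lie apart for 7.55% of all genes in overexpression minus control. Hhat, the acyltransferase that adds palmitate to the ligand, differed by 0.21 ± 0.13 there, and Ihh, a related ligand, by -0.20 ± 0.10 in the siRNA average (adjusted p 0.495).

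Of other signal transduction and cilium genes, 21 were tested and none passed limma's threshold in any comparison. The list held 22 names, since Grk2 also stood under its older name. Lrp2, a large endocytic receptor that binds Shh in the forebrain, differed from control by 0.89 ± 0.29 in the siRNA average (adjusted p 0.225). Its values were -2.35, -2.75 and -2.92 in set 2, -2.44, -2.30 and -2.59 in set 1, and -4.37, -2.80 and -3.16 in control samples, so that control replicate 1 was far below the rest. Stk36, a kinase of the Fused family, differed by 0.33 ± 0.15 in the siRNA average (adjusted p 0.428).

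Genes known to be induced by hedgehog signalling in the neural tube or ventral forebrain numbered 11, of which 7 were tested, among them Olig2, Ccnd1, Mycn and Bcl2. Nkx2-1, Nkx6-2 and Foxa2 were well above background on no array and Foxf1 on 1. Against control, 0 of the 7 passed limma's threshold in any comparison. In overexpression minus the siRNA average 1 of 7 was higher, Ccnd1, and 1 of 7 was lower, Bcl2, against 2.15% of all genes.

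Ccnd1, the cyclin that drives entry into S phase, read 1.66, 2.37 and 1.76 in overexpression, -0.52, 1.02 and -0.07 in set 2, 0.93, -0.22 and -0.05 in set 1, and 1.58, 0.75 and 1.90 in control samples. All overexpression arrays of Ccnd1 lay above all siRNA arrays, and groups lie apart for 7.12% of all genes in that comparison. The Ccnd1 difference between overexpression and the siRNA average was 1.75 ± 0.39 (limma adjusted p 0.0492), but with a slide block the adjusted p was 0.0692. Against control, Ccnd1 differed by 0.52 ± 0.45 in overexpression and by -1.23 ± 0.39 in the siRNA average (adjusted p 0.214), and the groups overlapped in both.

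Bcl2, which restrains cell death, read -0.50, -0.47 and -0.64 in overexpression, -0.23, -0.05 and -0.17 in set 2, -0.17, -0.14 and -0.17 in set 1, and -0.35, -0.45 and -0.43 in control samples. The control arrays of Bcl2 lay between the overexpression and the siRNA arrays. Groups lie apart for 7.55% of all genes in overexpression minus control and 5.32% in the siRNA average minus control. In overexpression minus the siRNA average the share is 7.12%. The overexpression arrays of Bcl2 lay below all siRNA arrays, with a difference of -0.38 ± 0.08 (limma adjusted p 0.0492, which became 0.0339 with a slide block). Ccnd1 and Bcl2 therefore went opposite ways in the same comparison.

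Olig2, a transcription factor of ventral progenitors and the oligodendrocyte lineage, read -3.96, -4.25 and -4.73 in overexpression, -4.09, -4.04 and -3.72 in set 2, -3.11, -3.38 and -3.04 in set 1, and -4.34, -4.28 and -4.94 in control samples. Every siRNA array lay above every control array, and groups lie apart for 5.32% of all genes in the siRNA average minus control. For Olig2 the difference from control was 0.21 ± 0.23 in overexpression and 0.57 ± 0.23 in set 2 (limma adjusted p 1.00 and 0.324). The difference of set 1 was 1.34 ± 0.23, with a limma adjusted p of 0.0508, and with a slide block of 0.0495.

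**Figure D4:**
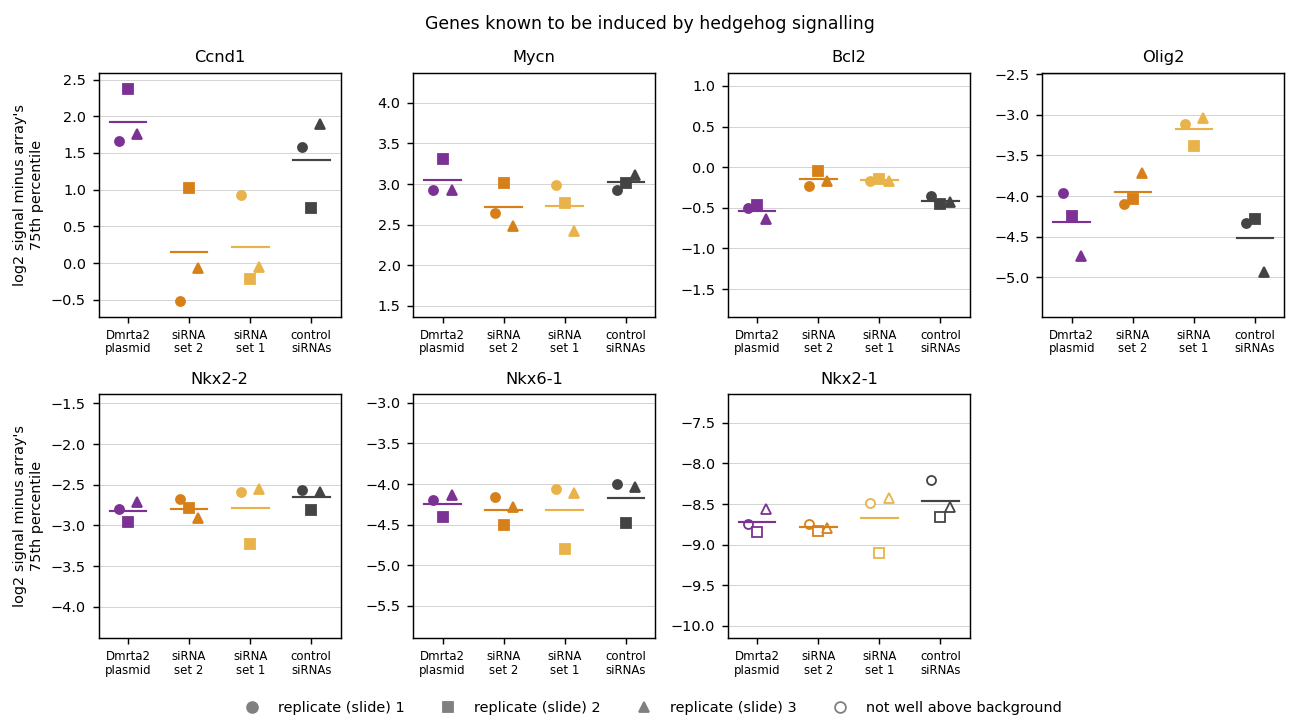
Relative level (log2 processed signal minus the 75th percentile of the array) of 7 genes known to be induced by hedgehog signalling, on each of the 12 arrays, with marks as in the plot of pathway genes by array. Ccnd1 on the overexpression arrays (1.66 to 2.37) lies above all siRNA arrays, and Bcl2 (-0.64 to -0.47) below them.

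Dorsal telencephalic genes known to be lowered or lost in Gli3 mutant mice numbered 8, all tested, and 0 passed limma's threshold in any comparison, while Gli3 itself differed from control by -0.02 to 0.06. Their median difference from control was 0.47 in overexpression, -0.03 in set 2 and 0.20 in set 1. Bmp4, a signal of the dorsal midline, and Lmx1a, a hem and roof plate factor, differed by 0.83 ± 0.33 and 0.80 ± 0.32 in overexpression (adjusted p 0.890 and 0.936). Wnt8b, a Wnt ligand of the hem, read 0.55, 0.80 and -0.39 in set 2 against 1.24, 1.48 and 1.25 in control samples. The Wnt8b difference in set 2 had a 95% interval of -1.68 to -0.33, with a limma adjusted p of 0.177, and with a slide block of 0.0428. In overexpression minus the siRNA average, Wnt8b differed by 0.94 ± 0.26, with an adjusted p of 0.114, and with a slide block of 0.0235, the only other blocked call among these 8 genes.

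Some markers of microglia and macrophages were higher than in control samples on these arrays. Of 9 such genes tested, 3 were higher in overexpression by limma (Aif1, Cx3cr1 and Tyrobp), against 0.273% of all genes, and 5 in set 2 (these with C1qa and Trem2), against 1.02%. In set 1 the count was 0, with 6 at an unadjusted p under 0.05, against 0.234% and 10% of all genes, and in the siRNA average it was 4, against 0.67%. With a slide block the counts were 3, 7, 0 and 5. The median log2 difference of the 9 genes from control was 1.55 in overexpression, 1.63 in set 2 and 0.63 in set 1. Csf1r, a receptor for macrophage growth factors, differed by -0.04 in overexpression and by -0.01 in set 2, and it supplied most of the list's summed signal. The summed relative signal was 3.32 to 6.28 in overexpression, 3.37 to 6.22 in set 2, 2.20 to 5.67 in set 1 and 2.38 to 6.04 in control samples, and 8 or 9 of the 9 were well above background on every array. Of 5 erythroid markers tested, 0 passed limma's threshold in any comparison. At an unadjusted limma p under 0.05 there were 2 in overexpression and 1 in set 2, against 4.44% and 12.8% of all genes. All 5 nevertheless differed from control by values above 0, with medians of 1.18 in overexpression, 0.99 in set 2 and 0.93 in set 1. The summed relative signal of the 6 listed erythroid genes was 5.22 to 11.0 in overexpression, 3.43 to 7.88 in set 2, 1.71 to 18.6 in set 1 and 1.94 to 3.86 in control samples. The value of 18.6 was on set 1 replicate 1, the array on which Ptch1 was highest. On each treated array 5 of the 6 were well above background, against 3 or 4 on control arrays. Alas2 was so on all 9 treated arrays and on no control array, so it entered the test through the treated groups alone. Of the ventral telencephalic markers, 1 of 9 tested, Ebf1, was higher in overexpression, by 1.34 ± 0.18 (limma adjusted p 0.0121), against 0.273% of all genes. The median of these 9 was 0.16 there and 0.85 in the siRNA average. In the siRNA average 0 passed, and 4 were higher at an unadjusted p under 0.05, against 12.1% of all genes. Of the 10 listed ventral genes, 5 to 9 were well above background on each siRNA array. On control arrays 5 or 6 were, and on overexpression arrays 5. Some thus entered the test mainly through siRNA arrays, so the count of 4 and the median of 0.85 cannot be read against all genes. For the 5 ventral markers well above background on all arrays, the siRNA average median was -0.03. In overexpression minus the siRNA average the median of the 9, which has the same limit, was -0.46, whereas that of these 5 was 0.08. Of the 9, 1 was higher past the threshold in this comparison. With a slide block 1 was higher and 1 lower there. Of 9 progenitor markers, 2 were lower in overexpression than in the siRNA average, against 2.15% of all genes, while the median of the 9 was 0.09. They were Pax6 and Vim, with limma differences of -1.52 ± 0.27 and -0.58 ± 0.11 (adjusted p 0.0172 and 0.0240). Against control, Pax6 differed by -0.46 in overexpression and by 1.06 in the siRNA average. In both of these, 0 of the 9 progenitor markers passed limma's threshold, and with a slide block 1 was higher in the siRNA average. The part of these cell types in the values of the pathway genes was not tested.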

How the data were processed

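Total RNA from the 12 samples was labelled with Cy3 from 0.1 ug and hybridised to 1 one-colour Agilent mouse array each, per the labels' protocols. The deposited scanner files hold spot intensity from Agilent Feature Extraction 10.5.1.1, per the submitters' processing notes, and the processed signal is background-subtracted within each array, per the file headers. The authors' deposited log2 table, of unstated scale and centring, correlated at 0.999 or more on every array with the scanner values scaled to the 75th percentile and centred per probe. Its column medians ran from -0.13 to 0.10, and it was used as an alternative.

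Control and outlier spots (136 to 218 of 43020) were left out, the 75th percentile of each array was subtracted from log2 processed intensity, and spots of a probe were averaged. No spot of the pathway genes was saturated. Of 39429 probes, 26055 were named through RefSeq accessions in a gene table of assembly GRCm38.p6. The array annotation is mm9, so no coordinates of probes are given. Probes well above background on at least 3 of 12 arrays were kept, and the brightest stood for its gene. limma 3.58.1 in R 4.3.3 (lmFit, eBayes, 8 residual degrees of freedom, two-sided) was run over all 12 arrays and checked on simulated data.

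The slide equals the replicate number. Deviations from group means of same-numbered samples correlated at 0.0199 to 0.600 over 18 pairs, 2 of them below 0.1. All were above 0, so samples of a slide shared variation that the main fit, which had no block, does not remove. A slide block raised the share of genes past the threshold in the siRNA average from 0.67% to 1.52%. The slide was treated as a batch, with blocked and within-slide values beside the results they bear on. The pathway genes and all gene lists were chosen with earlier results of these data known. Named genes were all 10 pathway genes, Dmrt3 and Dmrta2, listed genes past the threshold, up to 3 per list with the smallest p in the siRNA average or overexpression, and the 3 most alike. Emx1, Nkx2-1, Lum and Postn were named as defining markers, and the other ventral telencephalic markers to give their detection. Alternatives changed the background correction, normalization, filter, probe choice, block and samples. Some listed genes are not reported here by name.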

Additional observations from a re-analysis of the deposited data

Results flagged for a closer look

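None of the 8 measured pathway genes met a criterion for a closer look. Among the genes known to be induced by hedgehog signalling, 2 differed between plasmid and siRNA arrays by a direct test. Ccnd1 was higher in overexpression than in the siRNA average by 1.75 ± 0.39, and passed the threshold in 3 of 12 limma fits that each left out 1 array (adjusted p 0.0236 to 0.226). Bcl2 was lower, with a log2 difference of -0.38 ± 0.08, and passed in 0 of 12 such fits (adjusted p 0.0648 to 0.236). The direction was the same in all 12 fits for both genes.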

How the results depend on the processing

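The counts of pathway genes past the threshold were recomputed under 22 alternatives in each of the 6 comparisons, and were 0 in all except the planned normexp background correction. Leaving out each array in turn gave 0 throughout. Under normexp the count was 5 in overexpression minus control and 6 in overexpression minus the siRNA average. There the sign turned against the main value for Cdon (-1.10), Gli2 (0.95), Gli3 (-0.96) and Smo (-0.95) in overexpression minus the siRNA average, and for Gli3 (-0.97) and Smo (-1.03) in overexpression minus control, all past the threshold. Signs also turned, short of the threshold, for Boc (-0.29 and -0.19) and Gas1 (-0.66 and -0.38) in overexpression minus control and minus the siRNA average. On overexpression replicates 1 and 2 and set 1 replicate 2, 6, 24 and 3 spots had a local background over 10 times the array's median, and the 5th percentile of corrected signal was 1707, 2599 and 266, against 57.2 to 58.1 on the other 9 arrays. With those backgrounds replaced, an alternative chosen after seeing the data, these were 60.9, 66.6 and 73.9 and the counts were 0. That setting gave -0.12 for Ptch1 in set 2 minus set 1, where the main value was -0.43. Of 1056 values of single pathway genes, 11 passed the threshold, all under the planned normexp, and 72 had the other sign, with main sizes up to 0.34. With the replicate number as a block, the counts were 0 in all 6 comparisons, with lowest adjusted p of 0.962 in overexpression, 0.451 in set 2 and 0.514 in set 1. The planned normexp moved the median of all genes by up to 0.44 (log2), whereas quantile normalization and median centring moved it by up to 0.01 and 0.06. Besides leaving out arrays, 10 alternatives were run, of which Ccnd1 passed the threshold in 4 and Bcl2 in 2 (adjusted p 0.0253 to 0.0832 and 0.0339 to 0.370). Signal over background limits Shh and Hhip to no statement of change, and the wide intervals of Gli1 allow differences in either direction.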
